A study of Mus musculus with 14 samples.

Results

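The miR-15 family of the mouse left ventricle (LV) was described here through the 5 miRs that are named miR-15a, miR-15b, miR-16, miR-195 and miR-497, and through the opposite arms of their hairpins, which the array marks with an asterisk. Members were chosen by probe name alone. The name rule found 11 of the 1037 mouse probes on the array, of which 5 were guide strands (the arm that is usually loaded into the silencing complex) and 6 were opposite arms. Of these, 9 were among the 520 mouse miRs that the authors kept as detected, and the other 2, mmu-miR-15b* and mmu-miR-497*, had values only in the unfiltered table.

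Total LV RNA was measured on 14 single-channel miR arrays, 1 per mouse, in 3 groups. All mice were C57Bl/6 males aged 3 to 4 months with an ejection fraction of about 60% at the start. The HF+E2 group (n = 5) was in heart failure after transverse aortic constriction (TAC) and then received estradiol from a slow-release pellet under the skin, 0.03 mg/kg per day for 10 days. The HF group (n = 5) was killed once heart failure was reached, 6 to 8 weeks after TAC, at an ejection fraction of about 35%. The sham group (n = 4) had the operation without constriction. The labels name no TAC mice that received a pellet without hormone and no sham mice that received estradiol, so the pellet and the 10 added days cannot be told apart from the hormone.

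miRs of this family share the same seed, the short stretch near the 5′ end that pairs with target mRNAs, and they are known for holding back the cell cycle through targets such as cyclins, Cdk6 and Chek1. In the mouse heart they rise after birth while cardiomyocytes stop dividing, and excess miR-195 in cardiomyocytes causes cardiomyopathy in transgenic mice. The guide strands come from 3 pairs of neighbouring hairpins, each pair transcribed together, and miR-16 is made from 2 of them. Because one seed is shared, the members are often treated as one activity, while each pair has its own transcript.

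The 5 mature guide strands are shown because the shared seed and the differing 3′ parts decide what the probes can tell apart. Sequences are those of RefSeq (GRCm38.p6), 5′ to 3′, with the seed (bases 2 to 8) in capitals.
mmu-miR-15a: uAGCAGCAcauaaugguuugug
mmu-miR-16: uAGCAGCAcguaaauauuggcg
mmu-miR-15b: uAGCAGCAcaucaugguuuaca
mmu-miR-195: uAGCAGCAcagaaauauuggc
mmu-miR-497: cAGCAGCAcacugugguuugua

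The seed was the same in all 5 guide strands, and it stood in 10 of the 1679 mature mouse names in that table (0.596%). Counted from 1 at the 5′ end, mmu-miR-16 and mmu-miR-195 differed at 2 of 21 positions (G10A and U11G), and mmu-miR-15a and mmu-miR-15b at 4 of 22 (A12C, G20A, U21C and G22A). By contrast, mmu-miR-195 and mmu-miR-497, which share a transcript, differed at 9 of 21. Each guide probe held 2 copies of a stretch complementary to 21 or 22 bases of its miR. Cross-hybridization within the family was not measured. For other miRs the array carried altered control probes, and the first of the altered versions kept a median of 2.28% to 366% of the matched probe's signal, depending on the miR. The second version kept a median of 34.7% for miR-320a and of 0.13% to 1.32% for the other miRs. How many bases each version changes was not stated.

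The 3 hairpin pairs lie on separate chromosomes (GRCm38.p6). Mir15a (chr14:61632027-61632110) and Mir16-1 (chr14:61631880-61631972) lie on the minus strand, 54 bases apart, within the span of the long noncoding RNA gene Dleu2. Mir15b (chr3:69009772-69009835) and Mir16-2 (chr3:69009902-69009996) lie on the plus strand, 66 bases apart, within the span of the protein-coding gene Smc4, a condensin subunit. Mir497 (chr11:70234717-70234800) and Mir195a (chr11:70235042-70235135) lie on the plus strand, 241 bases apart. The 2 hairpins of the chromosome 11 pair are shown because their guide strands had the largest estimated rises, and the guide strand is in capitals.
Mir497: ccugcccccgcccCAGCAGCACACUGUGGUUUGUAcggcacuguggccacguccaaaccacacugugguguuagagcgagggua
Mir195a: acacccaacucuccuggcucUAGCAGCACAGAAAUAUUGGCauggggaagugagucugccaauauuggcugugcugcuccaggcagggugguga

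The 2 hairpins that release miR-16 are shown because a probe for the mature strand reads them together. Their guide strands, in capitals, are identical, and only the flanks and the opposite arms tell them apart.
Mir16-1: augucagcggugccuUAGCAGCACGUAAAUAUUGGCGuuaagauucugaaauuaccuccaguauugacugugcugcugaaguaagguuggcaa
Mir16-2: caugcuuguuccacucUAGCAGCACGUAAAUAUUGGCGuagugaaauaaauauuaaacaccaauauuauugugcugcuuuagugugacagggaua

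Values below are the authors' log2 spot intensities, averaged over 3 spots and shifted on each array by a scaling constant, except where an intensity before scaling is named. A miR was called changed at an adjusted p under 0.05 (limma, Benjamini-Hochberg over all 520 miRs) and a log2 difference over 0.5 in either direction. Levels of different probes were not compared, because probes differ in brightness per molecule. The scanner's upper limit was near 65000, and a miR with at least 2 of 3 spots at or above it was taken as saturated on that array.

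In failing LV, the guide strands of the chromosome 11 pair had the largest estimated rises and mmu-miR-15b a smaller one. The gap between them, tested within arrays below, did not pass after adjustment. mmu-miR-15a did not pass the test and mmu-miR-16 could not be measured. The scaled level of mmu-miR-497 was higher by 0.92 on the log2 scale in HF than in sham LV, that of mmu-miR-195 by 0.79 and that of mmu-miR-15b by 0.56. Of the 9 tested members, 4 were called between HF and sham, against 26.7% of all tested miRs. The count includes 3 called higher, against 8.46% of all miRs, and 1 called lower, against 18.3%, and the lower one is the saturated mmu-miR-16. Groups did not overlap for the same 4 members, against 21.5% of all miRs. The median log2 difference was 0.12 over the 9 members and -0.13 over all 520 miRs.

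**Figure D1:**
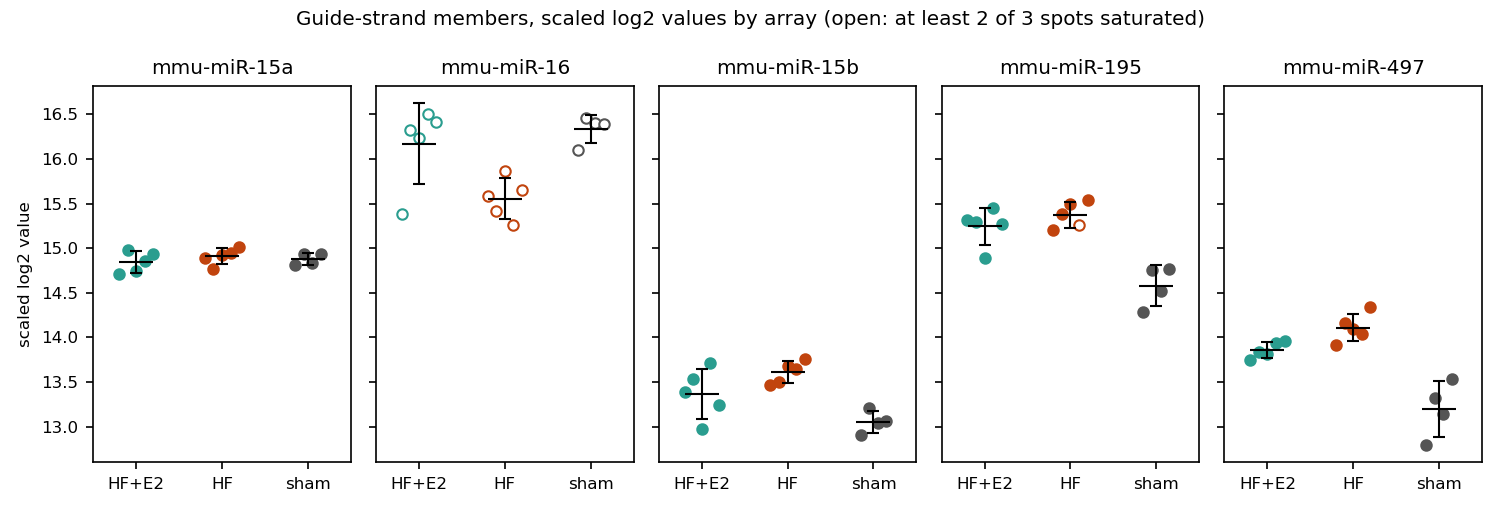
Scaled log2 level of each guide strand on each of the 14 arrays, in 1 panel per miR with HF+E2, HF and sham from left to right; points are arrays, open where the miR was saturated, and bars are group means with the SD. All HF points of mmu-miR-195, mmu-miR-497 and mmu-miR-15b lie above all sham points, those of mmu-miR-15a overlap, and every point of mmu-miR-16 is saturated.

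Of the chromosome 11 pair, mmu-miR-497 stood at 13.92, 14.16, 14.09, 14.04 and 14.34 on the HF arrays, against 12.79, 13.32, 13.14 and 13.53 on the sham arrays. The lowest HF array lay above the highest sham array. Means were 14.11 ± 0.15 in HF (SD, n = 5) and 13.19 ± 0.32 in sham LV (SD, n = 4), a difference of 0.92 ± 0.17 (SE, adjusted p = 0.00315), or 1.89-fold. Of all 520 miRs, 2.69% had a larger log2 difference. The 95% interval of the difference was 0.56 to 1.30, and the exact permutation test gave p = 0.00794, the smallest that 5 against 4 arrays allow.

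Before scaling, the mean intensity of mmu-miR-497 was 19279 to 28264 on the HF arrays and 6595 to 9029 on the sham arrays, so no array came near the upper limit. The array also carried a probe under the human name hsa-miR-497. Its scaled level was 14.56 ± 0.10 in HF and 13.84 ± 0.29 in sham LV (SD, n = 5 and n = 4), higher by 0.71 in HF with no overlap (exact permutation p = 0.00794). Both probes for miR-497 therefore gave a higher HF level, by different amounts.

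For mmu-miR-195, the scaled level was 15.20, 15.38, 15.50, 15.26 and 15.54 on the HF arrays, against 14.28, 14.75, 14.52 and 14.77 on the sham arrays. Again, no HF array fell within the sham range. Means were 15.37 ± 0.15 in HF (SD, n = 5) and 14.58 ± 0.23 in sham LV (SD, n = 4), a difference of 0.79 ± 0.15 (SE, adjusted p = 0.00315), or 1.73-fold. This value is limited by the scanner: mmu-miR-195 was saturated on HF 4, where its 15.26 is a lower limit, and 1 of its spots was saturated on HF 2. Before scaling, its intensity was 50265 to 65453 on the HF arrays and 17772 to 21336 on the sham arrays.

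**Figure D2:**
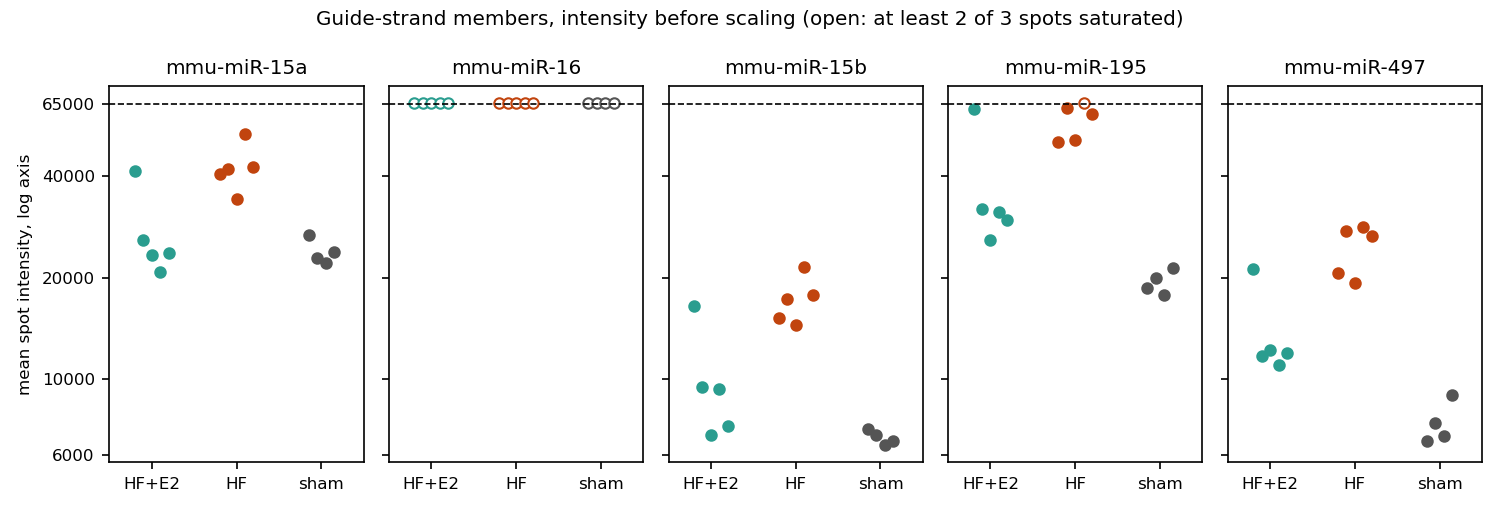
Mean spot intensity before scaling, on a log axis, for the 5 guide strands, with HF+E2, HF and sham from left to right, saturated arrays as open points and the upper limit of 65000 as a dashed line. Every point of mmu-miR-16 lies at the limit, mmu-miR-195 reaches the limit on HF 4, and mmu-miR-15a, mmu-miR-15b and mmu-miR-497 stay below it on all 14 arrays.

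Of the chromosome 3 pair, mmu-miR-15b was the measurable guide strand. Its scaled level was 13.47, 13.50, 13.68, 13.65 and 13.76 on the HF arrays, against 12.91, 13.21, 13.04 and 13.06 on the sham arrays, with no overlap. Means were 13.61 ± 0.12 in HF (SD, n = 5) and 13.05 ± 0.12 in sham LV (SD, n = 4), a difference of 0.56 ± 0.13 (SE, adjusted p = 0.00782), or 1.47-fold. The difference lies close to the limit of 0.5 that a call needs. With scaling to the 75th percentile of those probes that every array detected, it was 0.44 (adjusted p = 0.0451), which is no call.

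Of the chromosome 14 pair, mmu-miR-15a stood apart from the other measurable guide strands. Its scaled level was 14.89, 14.77, 14.92, 14.95 and 15.01 on the HF arrays, against 14.81, 14.94, 14.83 and 14.93 on the sham arrays. The groups overlapped, at 14.91 ± 0.09 in HF (SD, n = 5) and 14.88 ± 0.07 in sham LV (SD, n = 4). The difference was 0.03 ± 0.12 (SE, limma adjusted p = 0.87), with a 95% interval of -0.10 to 0.16. Its direction was not settled, since it was -0.17 after quantile normalization and -0.09 after scaling to the 75th percentile of the detected probes. Before scaling, its intensity was 34192 to 53176 on the HF arrays and 22146 to 26790 on the sham arrays. Its highest spot read 58354, below the upper limit.

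The probe for mmu-miR-16, the guide strand made from both the chromosome 14 and the chromosome 3 pair, was saturated in all 42 of its 42 spots, which read 65383 to 65465. Its scaled level, 15.55 ± 0.23 in HF (SD, n = 5) and 16.34 ± 0.16 in sham LV (SD, n = 4), was called lower in HF by 0.78 on the log2 scale. The scaling constants of the 2 groups differed by the same -0.78, and the unscaled log2 values differed by -0.000218. No change of mmu-miR-16 could be measured in any comparison, and no fold change is given for it. The constants ran from -0.74 to -0.14 on the HF arrays and from 0.10 to 0.46 on the sham arrays.

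Since 1 constant is added to every miR of an array, it cancels in the difference between 2 members of the same array. Differences of the members were therefore set against each other within arrays, in all 6 pairs of the 4 measurable guide strands and in 3 comparisons. These 18 exact permutation tests were adjusted together, and 6 had an adjusted p under 0.05. The level of such a difference depends on the probes and only its change between groups was read.

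Between HF and sham LV, mmu-miR-15a lagged behind the 3 other guide strands in every pair. The log2 difference of mmu-miR-497 minus mmu-miR-15a was -0.97, -0.60, -0.83, -0.91 and -0.68 on the HF arrays, against -2.02, -1.62, -1.70 and -1.40 on the sham arrays. It was thus higher by 0.89 in HF (95% interval 0.57 to 1.21, exact permutation test, adjusted p = 0.0238). For mmu-miR-195 minus mmu-miR-15a, the values were 0.31, 0.61, 0.57, 0.30 and 0.53 on the HF arrays, against -0.53, -0.20, -0.32 and -0.16 on the sham arrays. The change was 0.76 (95% interval 0.48 to 1.05, exact permutation test, adjusted p = 0.0238), with HF 4 saturated for mmu-miR-195.

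The 2 miR-15 strands also moved apart, although their mature sequences are close. mmu-miR-15b minus mmu-miR-15a was -1.42, -1.27, -1.24, -1.31 and -1.25 on the HF arrays, against -1.90, -1.74, -1.79 and -1.86 on the sham arrays. That is a change of 0.53 (95% interval 0.41 to 0.63, exact permutation test, adjusted p = 0.0238), and the groups did not overlap. It had the narrowest spread of the 6 pairs, with an SD of 0.07 in HF and 0.07 in sham LV (n = 5 and n = 4).

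Between the chromosome 11 and chromosome 3 pairs the differences were smaller and did not pass after adjustment. mmu-miR-497 minus mmu-miR-15b was higher by 0.36 in HF than in sham LV (exact permutation p = 0.0317, adjusted p = 0.0714), and mmu-miR-195 minus mmu-miR-15b by 0.24 (exact permutation p = 0.0317, adjusted p = 0.0714). Within the chromosome 11 pair, mmu-miR-497 minus mmu-miR-195 was -1.26 ± 0.08 in HF (SD, n = 5) and -1.38 ± 0.11 in sham LV (SD, n = 4). This change of 0.12 had a 95% interval of -0.03 to 0.26 (exact permutation test, adjusted p = 0.143). mmu-miR-195 was saturated on HF 4, which makes the change of mmu-miR-497 minus mmu-miR-195 an upper limit and that of mmu-miR-195 minus mmu-miR-15b a lower limit. Without HF 4 they were 0.11 and 0.27.

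**Figure D3:**
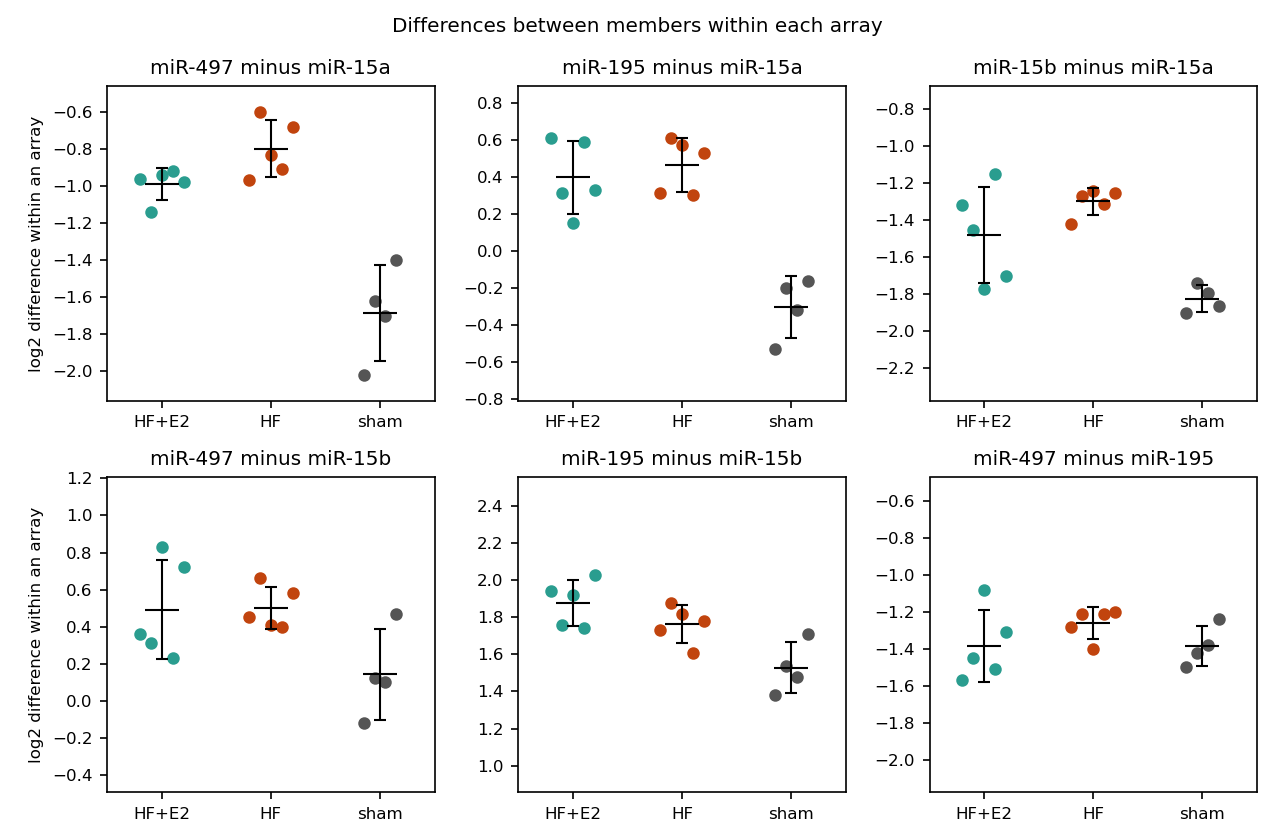
Log2 difference between 2 guide strands on the same array, in 1 panel per pair with HF+E2, HF and sham from left to right; points are arrays and bars are group means with the SD. In the 3 panels that involve mmu-miR-15a, all HF points lie above all sham points.

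Arrays carried code numbers whose meaning the labels do not give. All 4 sham arrays had the same code, which no HF or HF+E2 array shared, so for comparisons with sham LV the code and the group cannot be told apart. HF 1 to 4 shared another code, HF 5 shared one with HF+E2 1 to 3, and HF+E2 4 and 5 had one of their own.

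Of the marker lists of other cells, that of fibroblasts rose as a whole beside the rising members, and no other list had all its miRs called higher. All 4 fibroblast-rich miRs on the list (miR-199a-5p, miR-199a-3p, miR-214 and miR-21) were called higher in HF than in sham LV, against 8.46% of all miRs. On the 5 HF arrays, miR-199a-3p was saturated on 5 and miR-199a-5p on 2, and on the sham arrays neither was, so the summed scaled log2 level of the list, 16.51 to 16.98 on the HF arrays and 15.55 to 16.01 on the sham arrays, is a lower limit in HF. Of the unsaturated ones, miR-214 was 12.67 to 13.22 in HF and 11.25 to 11.94 in sham LV, and miR-21 was 13.09 to 13.85 in HF and 11.87 to 12.12 in sham LV.

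Of 6 white blood cell miRs, 3 were called higher in HF (miR-142-5p, miR-223 and miR-146a), against 8.46% of all miRs. None was called lower, against 18.3%. The others differed by 0.15 (miR-142-3p), -0.31 (miR-150) and -0.13 (miR-155), with no call. The summed level of the list was 14.7 to 15 in HF and 14.36 to 14.84 in sham LV. Of the endothelial, smooth muscle and red blood cell miRs, none was called higher, and 1 of 2, 2 of 2 and 1 of 3 were called lower, against 18.3% of all miRs. These were miR-126-3p, miR-143 and miR-145, saturated on all 14 arrays, and miR-451, saturated on 11, among them every HF and sham array. Each differed by -0.78, the same as the scaling constants, so no change of them could be measured. The unsaturated miR-126-5p differed by 0.09, miR-486 by -0.15 and miR-144 by -0.67, none of them called. Of 6 heart muscle miRs, which were above the detection threshold on all 14 arrays, 1 was called higher and 5 lower in HF. The shares of all miRs were 8.46% and 18.3%. Of the 5, 3 were saturated throughout, so no change of these could be measured. Of 4 epithelial miRs, 1 passed the authors' filter, and of the liver and neuron miRs (miR-122, miR-124 and miR-9) none did. The part of these cells in the members' rise was not tested, and in LV tissue more cells of a type and more RNA per cell cannot be told apart.

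After estradiol, the measurable guide strands had slightly lower scaled means than in HF LV, and none passed the test. The scaled level of mmu-miR-497 was 13.75, 13.84, 13.81, 13.94 and 13.96 on the HF+E2 arrays, against 13.92, 14.16, 14.09, 14.04 and 14.34 on the HF arrays. The ranges overlapped by a narrow margin. Its mean was 13.86 ± 0.09 in HF+E2 and 14.11 ± 0.15 in HF LV (SD, n = 5 each), a difference of -0.25 ± 0.14 (SE, limma adjusted p = 0.25), with a 95% interval of -0.43 to -0.08 from this miR alone. The exact permutation test of this miR alone gave p = 0.0238, before any adjustment. The human-named probe for miR-497 did not share it: its level was 14.58 ± 0.14 in HF+E2 and 14.56 ± 0.10 in HF LV (SD, n = 5 each), a difference of 0.03 (exact permutation p = 0.794).

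Before scaling, the array HF+E2 1 stood apart from its group. Its intensity was 21153 for mmu-miR-497, 16466 for mmu-miR-15b, 62902 for mmu-miR-195 and 41223 for mmu-miR-15a, each the highest of the 5 HF+E2 arrays, and its scaling constant of -0.62 lay in the range of the HF arrays. Without this array and HF 2, which shared a code suffix, the difference between HF+E2 and HF LV was -0.21 for mmu-miR-497, -0.28 for mmu-miR-15b, -0.15 for mmu-miR-195 and -0.06 for mmu-miR-15a, again with no call.

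The other guide strands differed less clearly between HF+E2 and HF LV. For mmu-miR-15b, levels on the HF+E2 arrays were 13.39, 13.53, 12.97, 13.71 and 13.24, a spread of 0.28 (SD, n = 5) against 0.12 in HF LV (SD, n = 5). Its difference was -0.24 ± 0.14 (SE, limma adjusted p = 0.254), with a 95% interval of -0.55 to 0.05. For mmu-miR-195, with 15.32, 15.29, 14.89, 15.45 and 15.27 on the HF+E2 arrays, the difference was -0.13 (limma adjusted p = 0.609), with a 95% interval of -0.41 to 0.12. Since mmu-miR-195 was saturated on HF 4, its HF mean is a lower limit and the fall may be larger. Without HF 4 the difference was -0.16 (limma adjusted p = 0.599). For mmu-miR-15a, with 14.71, 14.98, 14.74, 14.86 and 14.94, it was -0.06 (limma adjusted p = 0.773), with a 95% interval of -0.22 to 0.09.

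Of the 9 tested members, 1 was called between HF+E2 and HF LV, against 12.1% of all miRs. It was the saturated mmu-miR-16, called higher, against 11.2% of all miRs, and its difference of 0.62 equalled that of the scaling constants. None of the 6 within-array differences between guide strands passed after adjustment. The lowest p was that of mmu-miR-497 minus mmu-miR-15a, at -0.99 ± 0.09 in HF+E2 and -0.80 ± 0.16 in HF LV (SD, n = 5 each, exact permutation p = 0.0476, adjusted p = 0.0857). Within the only code number that held both groups, the 3 HF+E2 arrays differed from the 1 HF array by -0.54 for mmu-miR-497, -0.46 for mmu-miR-15b, -0.37 for mmu-miR-195 and -0.20 for mmu-miR-15a, values with no test.

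Set against sham LV, the chromosome 11 pair was higher in HF+E2 LV and the other measurable guide strands were not called. These values share the sham arrays with the HF comparison and the HF+E2 arrays with the one just given. The scaled level of mmu-miR-497 was 13.86 ± 0.09 in HF+E2 (SD, n = 5) and 13.19 ± 0.32 in sham LV (SD, n = 4), higher by 0.67 ± 0.15 (SE, limma adjusted p = 0.00808), or 1.59-fold. That of mmu-miR-195 was 15.24 ± 0.21 in HF+E2 (SD, n = 5) and 14.58 ± 0.23 in sham LV (SD, n = 4), higher by 0.66 ± 0.15 (SE, limma adjusted p = 0.00802), or 1.58-fold. For both, every HF+E2 array lay above every sham array.

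For mmu-miR-15b the groups overlapped, at 13.37 ± 0.28 in HF+E2 (SD, n = 5) and 13.05 ± 0.12 in sham LV (SD, n = 4). The lowest HF+E2 array, HF+E2 3 at 12.97, lay within the sham range, and the difference of 0.31 was not called (limma adjusted p = 0.189), with a 95% interval of -0.05 to 0.66. mmu-miR-15a differed by -0.03 (limma adjusted p = 0.901), with a 95% interval of -0.21 to 0.14. Thus 2 of the 9 members were called, against 8.46% of all miRs, both of them higher, against 5.19%, and 2 of the 9 did not overlap, against 14%.

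Within arrays, mmu-miR-497 minus mmu-miR-15a was -0.99 ± 0.09 in HF+E2 (SD, n = 5) and -1.68 ± 0.26 in sham LV (SD, n = 4), a change of 0.70. For mmu-miR-195 minus mmu-miR-15a the change was 0.69, and for mmu-miR-195 minus mmu-miR-15b it was 0.35, each with no overlap and an adjusted p of 0.0238 (exact permutation test). After quantile normalization the last of these was 0.27 and no longer passed (exact permutation p = 0.0635, unadjusted). mmu-miR-15b minus mmu-miR-15a was -1.48 ± 0.26 in HF+E2 (SD, n = 5) and -1.82 ± 0.07 in sham LV (SD, n = 4), a change of 0.35 that did not pass (exact permutation test, adjusted p = 0.0857). Of the fibroblast-rich miRs, 3 of 4, all but miR-21, were called higher in HF+E2 than in sham LV, against 5.19% of all miRs. Of these, miR-199a-5p and miR-199a-3p were each saturated on 1 HF+E2 array, and the unsaturated miR-214 was 12.61 to 13.11 in HF+E2 and 11.25 to 11.94 in sham LV. Their part in these differences was not tested.

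**Figure D4:**
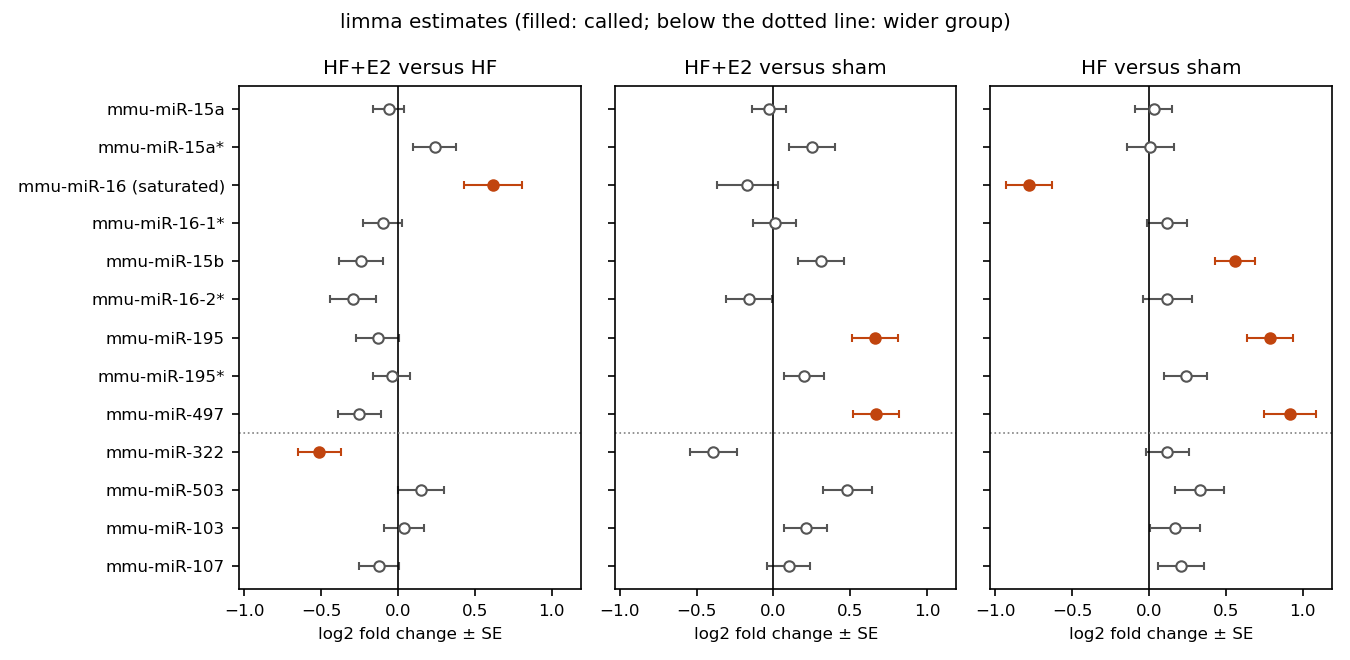
Log2 difference of each of the 9 tested members, and below a dotted line of the 4 guide strands of the wider group, from the limma fit with its standard error, in 1 panel each for HF+E2 versus HF, HF+E2 versus sham and HF versus sham; filled points were called, open points were not, and mmu-miR-16 was saturated. mmu-miR-497 and mmu-miR-195 lie to the right of 0.5 in both comparisons with sham. In HF+E2 versus HF they lie at -0.25 and -0.13, and mmu-miR-15a lies near 0 in all 3 comparisons.

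The opposite arms of the hairpins gave weak signals. The 4 tested ones, mmu-miR-15a*, mmu-miR-16-1*, mmu-miR-16-2* and mmu-miR-195*, had spots of 40 to 325 before scaling, and their 3 spots varied by a median of 14.5% (CV), against 4.92% for the measurable guide strands. All 4 means were dim, within 2 log2 units of the detection threshold, which averaged 5.491. None was called in any of the 3 comparisons.

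Of these arms, mmu-miR-195* came closest to its guide strand's pattern. Its scaled level was 7.33, 7.21, 7.38, 7.28 and 6.95 on the HF arrays, against 6.80, 7.13, 6.91 and 7.14 on the sham arrays. The groups overlapped through HF 5, and the difference was 0.24 ± 0.14 (SE, limma adjusted p = 0.212), or 0.44 with the negative controls subtracted (limma adjusted p = 0.0519). A probe under the rat name rno-miR-195* read 6.99 ± 0.25 in HF (SD, n = 5) and 6.50 ± 0.12 in sham LV (SD, n = 4), a difference of 0.49 (exact permutation p = 0.0238, unadjusted). Signals this near the background understate a change, so a smaller difference of an arm than of its guide strand has no reading.

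The arms of the hairpins that release miR-16 were the only members that could tell Mir16-1 from Mir16-2. mmu-miR-16-1* was 6.41 ± 0.15 in HF (SD, n = 5) and 6.29 ± 0.10 in sham LV (SD, n = 4), a difference of 0.12. mmu-miR-16-2* was 6.65 ± 0.30 in HF (SD, n = 5) and 6.53 ± 0.10 in sham LV (SD, n = 4), also a difference of 0.12, which was 0.02 without HF 2. Both values depended on the background: with the negative controls subtracted they were 0.48 for mmu-miR-16-1* (limma adjusted p = 0.0267), under the limit of 0.5, and 0.39 for mmu-miR-16-2* (limma adjusted p = 0.124). For mmu-miR-15a* the means were 6.56 ± 0.14 in HF (SD, n = 5) and 6.55 ± 0.28 in sham LV (SD, n = 4). Other probes under human or rat names did not show a rise like that of rno-miR-195*. Between HF and sham LV, hsa-miR-16-1* differed by 0.03, hsa-miR-16-2* by 0.0, rno-miR-16* by -0.01 and hsa-miR-15a* by -0.38. For hsa-miR-497* the difference was -0.67 (exact permutation p = 0.0317, unadjusted) and for rno-miR-497* 0.16, both below the threshold on every array. Of the 2 arms outside the tested table, mmu-miR-15b* averaged 4.60 in HF and 4.82 in sham LV, and mmu-miR-497* averaged 4.21 in HF and 4.73 in sham LV, below the mean detection threshold, and of their 14 arrays each only 1, for mmu-miR-15b*, read above its own threshold. In a fit over all mouse probes, mmu-miR-497* was called higher in HF+E2 (4.93 ± 0.10) than in HF LV (4.21 ± 0.38, SD, n = 5 each), by 0.72 (limma adjusted p = 0.0187), between levels that were below the threshold on every array.

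The wider group of miRs with AGCAGC at or next to their 5′ end was represented by miR-322, miR-503, miR-103 and miR-107. Of 9 mouse probes under these names, opposite arms included, 8 were tested. miR-322, which has the full seed of the family, and miR-503 are encoded together on the X chromosome. Their sequences are printed as above, since AGCAGC starts 1 base earlier in miR-103 and miR-107.
mmu-miR-322: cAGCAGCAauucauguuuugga
mmu-miR-503: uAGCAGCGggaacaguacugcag
mmu-miR-103: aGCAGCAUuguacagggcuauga
mmu-miR-107: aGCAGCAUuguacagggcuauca

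None of the 8 was called between HF and sham LV, against 26.7% of all miRs. The 8 include the opposite arms mmu-miR-322*, mmu-miR-503*, mmu-miR-103-1* and mmu-miR-103-2*, which are other sequences than the strands printed above. The untested arm mmu-miR-107* averaged 4.76 in HF and 5.32 in sham LV, below the mean detection threshold. In the fit over all mouse probes it was called lower in HF, with a difference of -0.56 (limma adjusted p = 0.0444). mmu-miR-322, with the same seed as the risen members, was 12.20 ± 0.20 in HF (SD, n = 5) and 12.08 ± 0.05 in sham LV (SD, n = 4), a difference of 0.12. mmu-miR-322 was called lower in HF+E2 than in HF LV, against 0.962% of all miRs called lower in that comparison. Its level was 11.26, 11.80, 11.71, 11.78 and 11.91 on the HF+E2 arrays, against 12.20, 12.42, 12.35, 12.14 and 11.91 on the HF arrays, a difference of -0.51 ± 0.14 (SE, limma adjusted p = 0.0356). The groups touched at 11.91, and the estimate lies just past the limit of 0.5. The lowest HF+E2 value, 11.26, was on HF+E2 1 and the highest HF value, 12.42, on HF 2, the arrays that shared a code suffix. The difference of mmu-miR-322 without these arrays is not given here. For mmu-miR-503, the level was 8.95 ± 0.23 in HF+E2 (SD, n = 5), 8.80 ± 0.23 in HF (SD, n = 5) and 8.48 ± 0.19 in sham LV (SD, n = 4), with no call in any comparison. mmu-miR-103 and mmu-miR-107 were higher in HF than in sham LV by 0.17 and 0.21, values that did not pass.

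The size of the members' differences depended on the scaling, while their order mostly did not. Shifting an array by a constant cannot change that order, so only quantile normalization and the subtraction of negative controls could have changed it. Without scaling, the median of all 520 miRs was 0.66 higher in HF than in sham LV, against -0.13 with the authors' constants. mmu-miR-15a was then called higher in HF, by 0.82, which lies near that median. Between HF+E2 and HF LV the unscaled median was -0.55, and the 4 measurable guide strands were called, at -0.68 for mmu-miR-15a, -0.75 for mmu-miR-195, -0.86 for mmu-miR-15b and -0.87 for mmu-miR-497. Relative to the median of all miRs, mmu-miR-497 was higher by 1.04, mmu-miR-195 by 0.92, mmu-miR-15b by 0.69 and mmu-miR-15a by 0.16 with the authors' constants. After quantile normalization, the values relative to the median were 0.88 for mmu-miR-497, 0.90 for mmu-miR-195, 0.61 for mmu-miR-15b and -0.12 for mmu-miR-15a.

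**Figure D5:**
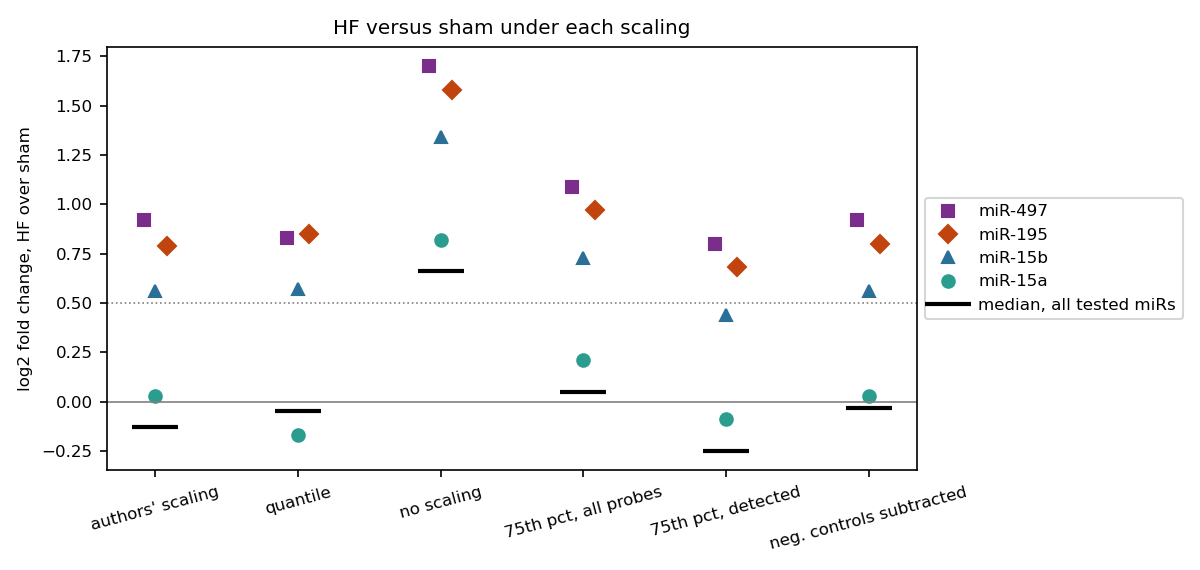
Log2 difference between HF and sham LV of the 4 measurable guide strands under 6 scalings, with the median of all 520 miRs as black bars, 0 as a solid line and the limit of 0.5 as a dotted line. mmu-miR-15a lies below the 3 other guide strands under every scaling shown, and without scaling all points and the median shift upward together.

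Over the 14 arrays, the scaled levels of mmu-miR-195 and mmu-miR-497 had a Pearson correlation of 0.94, and of 0.75 after group means were removed. For mmu-miR-15b it was 0.90 with mmu-miR-195, and 0.81 within groups, and 0.80 with mmu-miR-497, but 0.39 within groups. For mmu-miR-15a it was 0.42 with mmu-miR-15b, 0.27 with mmu-miR-497 and 0.25 with mmu-miR-195, and within groups 0.53, 0.48 and 0.47 in the same order. The values of mmu-miR-15a thus lay below the others over all arrays. Within groups they lay below 0.81 and 0.75, but above the 0.39 of mmu-miR-15b with mmu-miR-497. The points share the scaling constants and the group differences, so these values are a description.

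Among 252 bright and unsaturated miRs outside the family, those with the highest correlation over the 14 arrays differed by member. Each is given with that correlation and then with the one within groups. For mmu-miR-195 they were mmu-miR-214 (0.95 and 0.85), mmu-miR-199b* (0.95 and 0.81) and mmu-miR-214* (0.95 and 0.72). These are arms of miR-214 and miR-199 hairpins, which are rich in fibroblasts, and miR-214 is on the fibroblast list above. For mmu-miR-497 they were mmu-miR-674* (0.94 and 0.71), mmu-miR-214* (0.92 and 0.59) and mmu-miR-130a (0.92 and 0.83). For mmu-miR-15b they were mmu-let-7e (0.86 and 0.66), mmu-miR-140 (0.84 and 0.71) and mmu-miR-379 (0.84 and 0.55). For mmu-miR-15a they were mmu-miR-106b (0.79 and 0.81), mmu-miR-101b (0.74 and 0.85) and mmu-miR-148b (0.73 and 0.83), none of which was called in any comparison.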

How the data were processed

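LV RNA of 4 sham, 5 HF and 5 HF+E2 mice was measured on 1 array each. Per the labels and the notes in the deposited files, low molecular weight RNA was labelled at the 3′ end with Oyster-550 and hybridized to single-channel miRBase 16.0 arrays with 3 spots per probe. The deposited intensity values are background-subtracted by the authors and not scaled. The deposited log2 values are means of 3 spots that the authors shifted by a constant from each array's trimmed mean; the main table keeps the 520 mouse miRs above their detection threshold. Scanner settings were not given in the sources used here.

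The members and lists were chosen with earlier results of these data known. Every mouse probe of the family was named, with the wider miR-15/107 group and, for each guide strand not saturated throughout, the 3 best correlated miRs that were saturated on no array and at least 2 log2 units above the mean threshold. limma 3.58.1 (R 4.3.3; lmFit, eBayes) was fitted to all 520 miRs and checked on simulated data. HF versus sham used the 9 arrays of these groups, and both HF+E2 comparisons used all 14. The 2 arms outside the main table were taken from the unfiltered log2 values. Exact permutation tests were two-sided. The 95% intervals are those of a difference between group means and rest on few arrays, whose number limits the precision. Alternatives covered scaling, background, filters, saturated miRs, another test, single arrays left out and a replicate block. Leaving out the 2 arrays with code suffix 650, and the values within 1 code number, were added after seeing the data. Replicate numbers were taken from the labels, which do not say that they pair mice.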

Additional observations from a re-analysis of the deposited data

Results flagged for a closer look

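Of 51 sets of values within 1 group that were examined for a sample far from the others, 2 held one, where chance alone gives about 1 in 20. The scaled level of mmu-miR-16 was 15.38 on HF+E2 1, against 16.23 to 16.51 on the other HF+E2 arrays. This miR was saturated on every array, and its scaled level follows the scaling constant of the array, which was -0.62 on HF+E2 1. The within-array difference of mmu-miR-497 minus mmu-miR-15a was -1.14 on HF+E2 2, against -0.98 to -0.92 on the other HF+E2 arrays.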

How the results depend on the processing

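The number of members called between HF and sham LV (4) was 8 without scaling and 2 with saturated miRs left out. Between HF+E2 and HF LV (1) it was 7 without scaling, 2 over all mouse probes, and 0 after quantile normalization, scaling to the 75th percentile of all probes, subtraction of negative controls, with saturated miRs left out, with the plain t test and with only the 2 groups fitted. It was 0 to 1 as single arrays were left out. Between HF+E2 and sham LV (2) it was 1 without scaling, where mmu-miR-195 lost its call (0.83, limma adjusted p = 0.0505), and 1 with saturated miRs left out.

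Signs turned only for small differences. mmu-miR-15a in HF versus sham was -0.17 after quantile normalization and -0.09 with the 75th percentile of detected probes; in HF+E2 versus sham it was 0.13 without scaling and 0.04 with the 75th percentile of all probes. mmu-miR-15a* in HF versus sham was -0.12 with the 75th percentile of detected probes, -0.01 without the 2 arrays with code suffix 650, and -0.08 to 0.10 as single arrays were left out; in HF+E2 versus HF it was -0.36 without scaling. mmu-miR-195* in HF+E2 versus HF was 0.02, and mmu-miR-16-1* in HF+E2 versus sham -0.04, with the 75th percentile of detected probes, the second -0.07 to 0.06 as single arrays were left out. The saturated mmu-miR-16 in HF+E2 versus sham was 0.03 without the 650 arrays and -0.25 to 0.03 as single arrays were left out.

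For within-array differences, calls among these alternatives rest on the unadjusted exact p. mmu-miR-497 minus mmu-miR-195 was -0.02 in HF versus sham and 0.04 in HF+E2 versus HF after quantile normalization. In HF+E2 versus HF, mmu-miR-497 minus mmu-miR-15b was 0.03 and mmu-miR-195 minus mmu-miR-15b -0.01 after quantile normalization, the first 0.07 without the 650 arrays and -0.09 to 0.06 as single arrays were left out. In HF versus sham, mmu-miR-497 minus mmu-miR-15b lost p under 0.05 after quantile normalization (0.26), without the 650 arrays (0.32) and in 8 of 9 omissions of a single array, all but sham 4 (0.27 to 0.47, exact p up to 0.114). mmu-miR-195 minus mmu-miR-15b lost it at 0.28, at 0.21 and in 7 of 9 omissions, all but HF 4 and sham 4 (0.19 to 0.30, up to 0.0571). In HF+E2 versus HF, mmu-miR-497 minus mmu-miR-15a lost it after quantile normalization (-0.11), without the 650 arrays (-0.15) and in 8 of 10 omissions, all but HF 1 and HF 4 (-0.23 to -0.14, up to 0.103); mmu-miR-15b minus mmu-miR-15a ran from -0.26 to -0.11 and passed without HF+E2 4 (-0.26, exact p = 0.0238). In HF+E2 versus sham, mmu-miR-195 minus mmu-miR-15b lost it after quantile normalization (0.27), and mmu-miR-15b minus mmu-miR-15a without the 650 arrays (0.31) and in 7 of 9 omissions, all but HF+E2 3 and sham 2 (0.26 to 0.42, up to 0.0714).

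With a replicate block, paired differences in HF versus sham were 0.85 for mmu-miR-497 minus mmu-miR-15a, 0.75 for mmu-miR-195 minus mmu-miR-15a, 0.52 for mmu-miR-15b minus mmu-miR-15a, 0.34 for mmu-miR-497 minus mmu-miR-15b and 0.23 for mmu-miR-195 minus mmu-miR-15b, and in HF+E2 versus sham 0.69, 0.71, 0.40, 0.29 and 0.31 for these pairs in turn; 4 pairs cannot go below an exact p of 0.125. In HF+E2 versus HF, mmu-miR-497 minus mmu-miR-15a was -0.19 (exact p = 0.188). Same-numbered arrays deviated together with a median correlation of 0.13 (-0.30 to 0.46, 13 pairs, 7 over 0.1). For arrays with other numbers it was 0.0 (-0.45 to 0.42, 52 pairs, 17 over 0.1). The labels do not say that the numbers pair mice, and they were not taken as pairs. Arrays have no read depth; the upper limit and 4 or 5 arrays per group limit these values.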
